A study of Mus musculus with 8 samples.

Results

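The C-type lectin receptor genes were examined in macrophages sorted from mouse pancreas tumours and split by their amount of MHC class II (MHCII), the complex that shows peptides to helper T cells. Members were the genes that the array files name Clec followed by a digit, without Clec9a, together with Mgl2, Ly75, Cd302, Mrc2, Cd69, Cd72 and Cd207. This gave 38 genes with 60 probes, of which 34 passed a filter on dim probes among 27963 genes tested. A gene passed when 4 or more of the 8 arrays read a probe well above background, and its brightest probe stood for it. Clec2h, Clec3a, Clec4a2 and Clec11a did not pass. There were 4 MHCII-high and 4 MHCII-low samples with 1 Cy5 array each. The mice were females, labelled FvBn, 8 to 10 weeks old, and carried implanted tumours. The labels provide no genotype and no gate besides MHCII, and the design text speaks of normal or tumour-bearing pancreas in mice that were KPC, FLT3-CRE/LSL-YFP or wild-type, without tying these samples to any of them. The sources used here do not name the tumour cells implanted or say whether cells of several mice were pooled. Each group holds the numbers 20435, 20436, 20439 and 20442 once, and values by sample are given in that order throughout. No label states that each sample is a different mouse, and the p-values therefore rest on sample-to-sample spread that could be technical.

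C-type lectin receptors are proteins built on the C-type lectin domain, and many bind sugars or lipids of microbes and of damaged or dying cells. In myeloid cells several of them, such as Dectin-1 and Mincle, signal through the kinase Syk and the Card9, Bcl10 and Malt1 complex to NF-kB, either by their own tail or through an adaptor such as the Fc receptor gamma chain or DAP12. Others carry an inhibitory tail motif that recruits phosphatases, and a further set takes up ligands for delivery to endosomes. In mice many of these genes lie together on chromosome 6, next to the lectin-like receptors of natural killer cells.

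Each value is a log2 signal after scaling every array to its 75th percentile, so a difference of 1 is 2-fold, and differences are MHCII-high minus MHCII-low. The share of probes well above background ranged from 68.5% to 74.4% per array and 0 spots were saturated. The arrays lay in 2 rows of a slide, with 1 MHCII-high and 3 MHCII-low arrays in row 1 and 3 and 1 in row 2. A within-row value therefore sets 1 array of a group against 3 of the other. All 11 macrophage markers, among them Csf1r, Adgre1 and Mertk, were well above background on every array. Their mean level was 3.72 to 4.11 in MHCII-high and 4.16 to 4.53 in MHCII-low samples, and Adgre1 alone passed the test, toward MHCII-low. Of 12 dendritic cell markers 9 passed toward MHCII-high, with a list level of 0.41 to 1.29 against -1.71 to -1.15. In such sorted bulk samples, fewer cells of a type and less RNA per cell cannot be told apart. The part of these cell types in the differences of the lectin genes was not tested.

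Mgl2, a galactose-type lectin, and Cd69, an early activation antigen, were higher in MHCII-high cells, by 1.97-fold and 2.39-fold, and no lectin gene was called lower. These 2 of 34 genes (5.88%) passed an adjusted p of 0.05 in limma, where 4.94% of all genes did. Of all genes 2.69% were called toward MHCII-high and 2.26% toward MHCII-low, so the share among the lectins was near the background in this fit. The samples of the groups did not overlap for 9 of the 34 genes (26.5%), against 14.5% of all genes. Of the 34 members 7 were separate and higher in MHCII-high, against 7.5% of all genes, and 2 of the 34 in MHCII-low, against 6.96%. An unadjusted p under 0.05 was reached by 12 of the 34 members, and by 19.7% of all genes. Differences of at least 2-fold were seen for 6 members (17.6%), against 9.17% of all genes, and the median size of the log2 difference was 0.549 against 0.273. The signed values pointed both ways, with 21 above 0 and 13 below, and their median was 0.08 beside 0.00272 over all genes. With the slide row as a block Mgl2 alone of the members passed, where 1.63% of all genes did, while blocking by label number left Mgl2 and Cd69, where 2.89% of all genes passed. With normexp background correction and quantile normalization 5 of the 34 members passed, where 7% of all genes did. Of these members 3 lay toward MHCII-high and 2, Cd302 and Clec4d, toward MHCII-low. With a variance trend in eBayes 7 of the 34 passed, 5 and 2 in these directions, where 7.27% of all genes did. When all 8 arrays had to be above background 5 of 32 members passed, 3 and 2, where 6.82% of all genes did. The number of members called went from 2 to 1 without MHCII-high 20439 or 20442 or MHCII-low 20435 or 20442. The count over all genes went from 1382 to 555 and 781 without those MHCII-high samples and to 724, 864, 822 and 833 without MHCII-low 20435, 20436, 20439 and 20442.

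**Figure D1:**
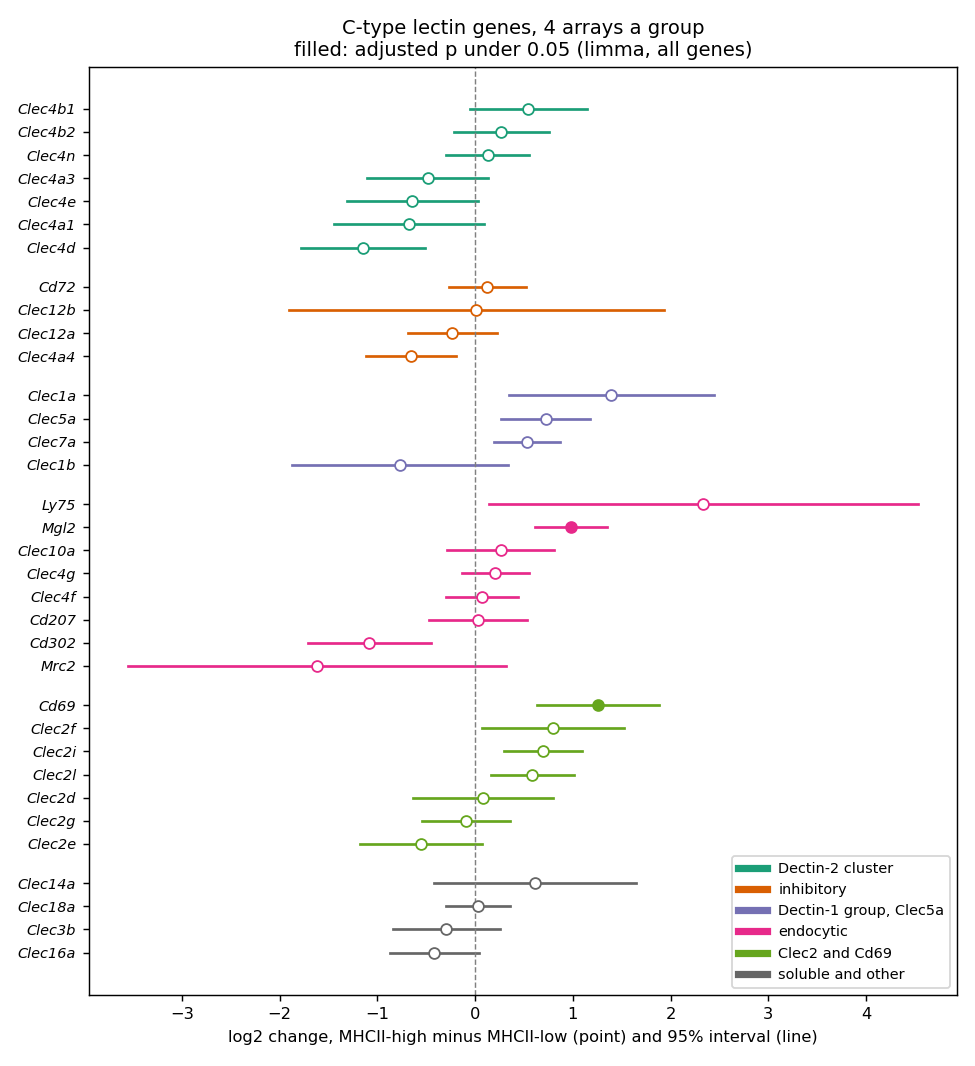
Each point is the log2 difference (MHCII-high minus MHCII-low, horizontal axis) of a C-type lectin gene over 4 arrays a group, with its 95% interval as a line, coloured by role, and filled points passed an adjusted p of 0.05 in limma. Mgl2 at 0.98 and Cd69 at 1.26 are filled, while 21 of the 34 points lie above 0 and 13 below.

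Among the 8 endocytic lectins 1 rose and 0 fell, where 2.69% and 2.26% of all genes did. The groups did not overlap for 2 of the 8, against 14.5% of all genes, and the median difference was 0.14. Mgl2 (CD301b) binds N-acetylgalactosamine and marks subsets of macrophages and dendritic cells. It read 4.67, 4.68, 4.53 and 4.69 in the MHCII-high and 3.88, 3.89, 3.48 and 3.39 in the MHCII-low samples. Every MHCII-high sample lay above every MHCII-low sample, and the MHCII-high values spanned a narrower range. The group means were 4.64 ± 0.07 and 3.66 ± 0.26 (SD, n = 4), a 1.97-fold difference with a 95% interval of 1.53 to 2.55 (limma adjusted p = 0.0149). Mgl2 kept its call with the slide row as a block (limma adjusted p = 0.0391), with differences of 0.93 and 1.23 within rows 1 and 2. It also kept it in each of the 8 fits with 1 sample left out (adjusted p = 0.0241 to 0.0449). A further Mgl2 probe, 453 bases downstream, read 3.92, 3.99, 4.07 and 4.02 against 3.34, 3.22, 3.21 and 2.90. That probe differed by 0.84 (limma over all kept probes, adjusted p = 0.0171). The probe that carries this result is printed 5′ to 3′, and the file places it at chr11:69950532-69950591 on the plus strand of mm9.
Mgl2: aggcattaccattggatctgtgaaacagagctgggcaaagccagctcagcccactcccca

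Clec10a (CD301a), the neighbouring galactose-type lectin, differed by 0.26 (95% interval -0.29 to 0.81, limma adjusted p = 0.602). Its samples read 2.22, 1.90, 1.89 and 2.34 against 2.32, 1.44, 1.46 and 2.10. These overlap widely, and in each group samples 20435 and 20442 were the higher ones. Ly75 (DEC-205), an uptake receptor of dendritic cells, had the largest fitted difference of the 34 members, 2.34, with a limma adjusted p = 0.224. It read -5.83, -2.75, -2.96 and -1.69 against -4.96, -4.43, -7.66 and -5.53. MHCII-high 20435 lay below 3 of the MHCII-low samples. The Ly75 probe was well above background on 3 MHCII-high and 2 MHCII-low arrays, so part of these values are background. Of the dendritic cell markers that stand beside it, 9 of 12 were called toward MHCII-high, as given above.

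Cd302, a receptor with a single lectin domain linked to endocytosis and phagocytosis, was lower in all 4 MHCII-high samples. It read 0.31, -0.01, -0.35 and -0.91 against 0.48, 0.76, 1.04 and 1.1. The groups did not overlap, though the closest samples, both numbered 20435, were near each other. The difference of -1.09 (95% interval -1.71 to -0.46) had a limma adjusted p = 0.0637, with 0.171 under a block for slide row and 0.0434 without MHCII-high 20435. Mrc2 (Endo180), a collagen uptake receptor of fibroblasts and some macrophages, read -4.65, -1.94, -0.58 and -4.07 against -1.74, -1.13, -0.35 and -1.53. MHCII-high 20435 and 20442 were low and the other samples were mixed. Its difference of -1.62 had a limma adjusted p = 0.339. The list level of the 7 fibroblast markers was -2.18, 0.35, 0.84 and -0.94 against -0.01, 0.79, 1.25 and 0.93, so it was lowest in the same MHCII-high samples. None of those markers passed the test, all were lower on average in MHCII-high cells, and Lum and Pdgfrb stood well above background on only 2 arrays of the MHCII-high group. Their part in the Mrc2 values was not tested.

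The remaining endocytic lectins are best known from other sites. Clec4g (LSECtin), of liver sinusoidal endothelium, differed by 0.20. A dimmer Clec4g probe, tied to the gene by its main identifier, was well above background on 1 MHCII-high and 2 MHCII-low arrays. It failed the filter, had a mean level of -5.33 and gave -0.28. The probe read here was tied by another identifier, and whether it measures Clec4g RNA was not tested. Clec4f, of Kupffer cells, differed by 0.07 and Cd207 (langerin), of Langerhans cells, by 0.03. None of the 3 was called, the sample values overlapped, and the sign of the last 2 turned with normexp background correction and with centring on the array median.

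In the Clec2 family and Cd69, 7 genes were tested, 1 rose and 0 fell, where 2.69% and 2.26% of all genes did. Of the values 5 lay above 0 and the median was 0.58. Clec2 proteins, also named Clr, are ligands of the NKR-P1 receptors of natural killer cells, and Cd69 lies among their genes. Cd69 binds the sphingosine-1-phosphate receptor S1pr1 and keeps lymphocytes in tissue. It read -1.89, -1.99, -1.57 and -1.72 in the MHCII-high and -2.98, -3.81, -2.44 and -2.96 in the MHCII-low samples. The groups were separate, and MHCII-low 20436 was the lowest sample. The difference was 2.39-fold (95% interval 1.55 to 3.69, limma adjusted p = 0.0397), with means of -1.79 ± 0.18 and -3.05 ± 0.56 (SD, n = 4). Its probe lies at chr6:129217697-129217756 of mm9 on the minus strand.

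The call of Cd69 was lost in several fits in which Mgl2 kept its own. Blocking by slide row gave a limma adjusted p = 0.141, with a log2 difference of 1.16, and 1.09 and 1.24 within rows 1 and 2. The call was lost without MHCII-high 20435 (0.0688), 20436 (0.0674), 20439 (0.112) or 20442 (0.0954) and without MHCII-low 20435 (0.0894) or 20442 (0.0829), values that are limma adjusted p-values. With normexp correction the difference was smaller, at 0.76, and passed (limma adjusted p = 0.0201). It did not pass on quantile-normalized values (1.22, limma adjusted p = 0.0598), on the authors' deposited log2 values (1.22, 0.0604), with centring on the array median (1.18, 0.0583) or with no filter on dim probes (1.26, 0.0569). A further Cd69 probe read -2.47, -1.19, -0.76 and -0.87 against -3.97, -3.12, -2.56 and -5.94. The groups did not overlap on that probe either, and its difference of 2.58 had a limma adjusted p = 0.0821. Lymphocytes express Cd69 on activation. Of 9 T and NK cell markers 0 passed, with a list level of -1.52 to -0.80 against -1.55 to -0.91. Their part in the Cd69 difference was not tested.

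Of the Clec2 genes none was called. Clec2i (Clr-g), a ligand of the receptor encoded by Klrb1f, read 0.25, 0.63, 0.35 and 0.08 against -0.49, -0.60, -0.20 and -0.16, so the groups were separate. The difference of 0.69 had a limma adjusted p = 0.0633. Clec2l, a member known from brain, read -0.85, -1.08, -0.71 and -0.80 against -1.09, -1.81, -1.31 and -1.57. Its groups were separated only by the gap between MHCII-high 20436 and MHCII-low 20435, and its difference of 0.58 had a limma adjusted p = 0.123. Clec2f differed by 0.80 with overlapping samples. Clec2d (Clr-b), the ligand of NKR-P1B, differed by 0.08, Clec2g by -0.09 and Clec2e by -0.56. The Clec2d sign turned with the slide row as a block (-0.073), as did that of Clec2g (0.15).

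**Figure D2:**
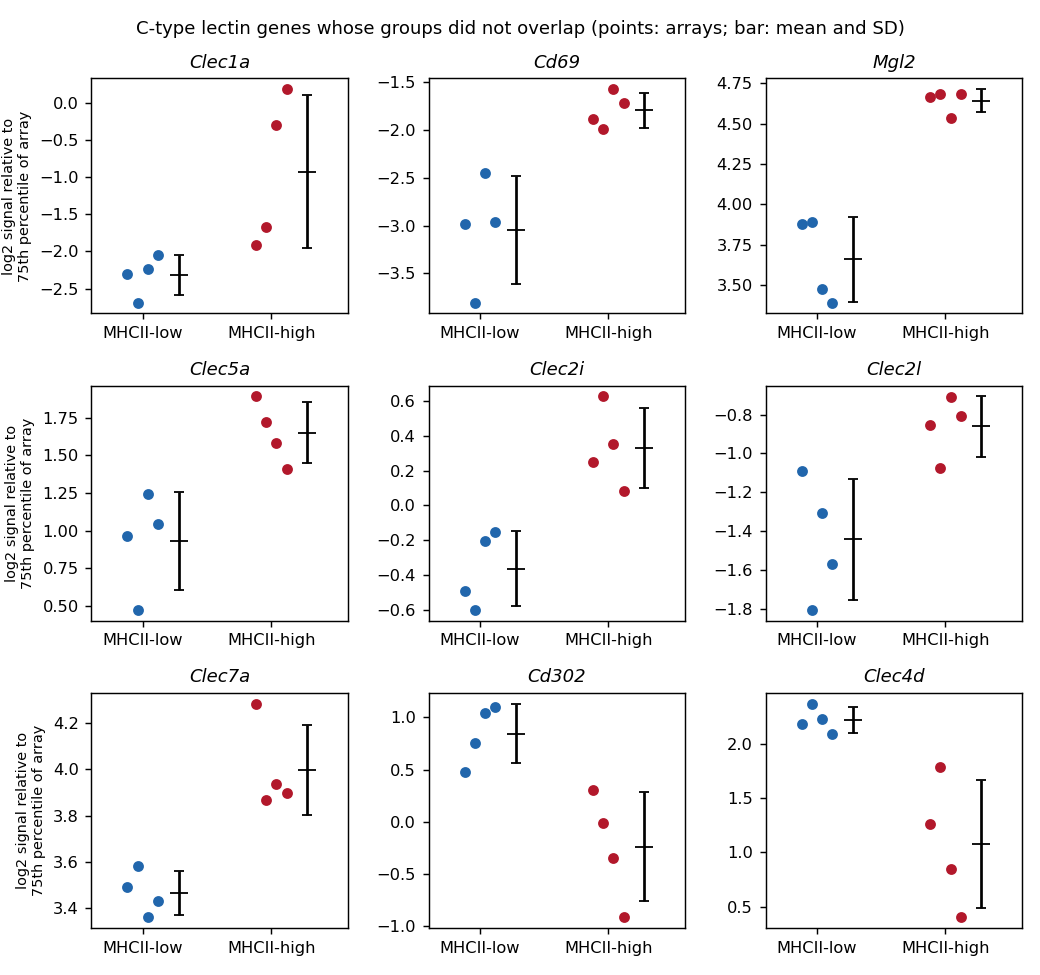
Panels show the log2 signal relative to the array's 75th percentile (vertical axis, a scale of its own in each panel) of the 9 lectin genes whose groups did not overlap, with 4 arrays a group as points and the mean and SD as bars. The 4 MHCII-high Mgl2 values lie between 4.53 and 4.69 and all MHCII-low values at 3.89 or lower, whereas for Cd302 and Clec4d the MHCII-low samples are the higher ones.

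The Dectin-1 group and Clec5a include activating receptors, and 0 of 4 genes were called, where 4.94% of all genes were. The groups were separate for 3 of the 4, each higher in MHCII-high, against 7.5% of all genes. Clec7a (Dectin-1), the receptor for fungal beta-glucan, read 4.28, 3.87, 3.94 and 3.90 against 3.49, 3.58, 3.36 and 3.43. All MHCII-high samples were higher and 20435 stood above the other 3. The difference of 0.53 (95% interval 0.20 to 0.86) had a limma adjusted p = 0.0814. It passed on quantile-normalized values (limma adjusted p = 0.0443) and on the authors' deposited log2 values (limma adjusted p = 0.045), but not with centring on the array median (0.178), the mean of its probes (0.173) or a block for slide row (0.229). It was 0.39 and 0.61 within rows 1 and 2. The other Clec7a probe read 3.19, 3.16, 2.96 and 2.50 against 2.41, 2.62, 3.13 and 2.08, with overlapping groups and a difference of 0.39 (limma adjusted p = 0.444). The Clec7a probe read here crosses an intron, since its 60 bases span 1645 bases of mm9 at chr6:129420986-129422630 on the minus strand, so it reads spliced RNA.
Clec7a: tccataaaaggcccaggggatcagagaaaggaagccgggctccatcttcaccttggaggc

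Clec5a (MDL-1), which pairs with the adaptor DAP12, read 1.89, 1.72, 1.58 and 1.41 against 0.97, 0.47, 1.24 and 1.04. Its groups were separate, with a difference of 0.72 and a limma adjusted p = 0.0817. Its other probes gave 0.65 and 0.30 (limma over all kept probes, adjusted p = 0.13 and 0.569), and neither was called. The first of these also crosses an intron, at chr6:40532266-40535180 on the minus strand of mm9. It read -0.88, -1.34, -0.95 and -1.24 against -1.82, -2.23, -1.41 and -1.55, and is printed because it reads spliced RNA.
Clec5a: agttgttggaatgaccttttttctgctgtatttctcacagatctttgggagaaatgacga

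Clec1a (MelLec), a receptor for fungal melanin, read -1.92, -1.67, -0.30 and 0.18 against -2.30, -2.69, -2.23 and -2.05. The groups were separate, but MHCII-high 20435 and 20436 lay nearer to the MHCII-low samples than to MHCII-high 20439 and 20442. The difference of 1.39 had a limma adjusted p = 0.134. Clec1b (CLEC-2), the podoplanin receptor of platelets, read -1.62, -1.46, -1.32 and -2.12 against -2.31, -0.92, -0.37 and 0.17. MHCII-low 20435 was lowest of all and the other MHCII-low samples were highest. Its difference of -0.77 had a limma adjusted p = 0.429. Of 6 platelet markers 0 passed, with a list level of -2.26 to -1.52 in MHCII-high and -3.15 to -2.15 in MHCII-low samples. Gp9 differed by 3.54 and was above background on 2 of the MHCII-low arrays, while the other 5 differed by -0.02 to 0.49. Their part in the Clec1b values was not tested.

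In the Dectin-2 cluster 0 of 7 genes were called, where 4.94% of all genes were. Of the values 3 lay above 0 and 4 below, and the median was -0.48. Clec4d (MCL), which forms a receptor complex with Mincle for mycobacterial glycolipid, read 1.26, 1.79, 0.85 and 0.40 against 2.18, 2.37, 2.23 and 2.09. All MHCII-low samples were higher and close together, and the MHCII-high samples were spread. The difference was -1.14 (95% interval -1.78 to -0.51, limma adjusted p = 0.0563), and without MHCII-high 20436 it passed (limma adjusted p = 0.0232). With a block for slide row it had a limma adjusted p = 0.179. Within rows 1 and 2 it was -0.47 and -1.26. The Clec4d probe lies at chr6:123224788-123224847 of mm9 on the plus strand. Clec4e (Mincle) read 1.32, 1.71, 1.37 and 0.33 against 2.03, 1.90, 1.91 and 1.47. The groups overlapped, since MHCII-low 20442 lay below MHCII-high 20436. Its difference of -0.65 had a limma adjusted p = 0.272. Clec4n (Dectin-2), a receptor for fungal mannan, read 3.09, 3.06, 3.03 and 2.81 against 2.53, 2.67, 3.06 and 3.23, a difference of 0.13 with overlapping samples.

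Neutrophils and monocytes also express Clec4d, Clec4e and Clec5a. Of 10 neutrophil markers 0 passed, with a list level of -0.52 to 0.49 against -0.22 to 0.35, and their part in these values was not tested. Clec4a1 differed by -0.68 and Clec4a3 by -0.48, both with overlapping samples. MHCII-low 20442, at 2.94, was the highest Clec4a1 sample and MHCII-high 20439, at 0.78, the lowest. Clec4b2 differed by 0.27. For Clec4b1 (DCAR), an activating receptor for mycobacterial phosphatidylinositol mannosides, the probe decided the sign. The brightest probe read 1.92, 1.77, 1.87 and 2.01 against 0.67, 1.23, 1.53 and 1.98, a difference of 0.54 (limma adjusted p = 0.299). The other read 0.15, 0.47, -0.05 and -0.41 against -0.37, 0.24, 0.43 and 1.26, a difference of -0.35. Number 20442 was the highest MHCII-low sample on both. The brightest probe crosses an intron at chr6:123000666-123018461 and the other lies downstream of it at chr6:123021454-123021513, each on the plus strand of mm9, so they read different stretches of the RNA.
Clec4b1, brightest probe: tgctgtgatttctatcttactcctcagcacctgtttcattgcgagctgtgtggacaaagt
Clec4b1, other probe: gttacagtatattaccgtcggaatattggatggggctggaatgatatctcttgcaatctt

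Of the receptors with an inhibitory motif 0 of 4 were called, where 4.94% of all genes were. Of the values 2 lay above 0 and 2 below, and the median was -0.11. Clec12a (MICL), which binds uric acid crystals, read 3.64, 3.36, 3.59 and 3.78 against 3.62, 3.45, 4.06 and 4.18. Only MHCII-low 20439 and 20442 exceeded all MHCII-high samples, and the difference was -0.23. Clec4a4 (DCIR2) had nearly separate groups, with a difference of -0.66 and a limma adjusted p = 0.111. Its highest MHCII-high sample, 20442 at -4.24, lay just above the lowest MHCII-low sample, 20435 at -4.25. Cd72, a receptor of B cells and some myeloid cells, read 2.96, 2.73, 2.55 and 2.73 against 2.63, 2.41, 2.46 and 2.98, a difference of 0.12. Its other probe read 1.45, 1.02, 1.03 and 1.12 against 0.39, 0.44, 0.63 and 0.70. On that probe the groups were separate, with a difference of 0.62 (limma adjusted p = 0.0653). Clec12b was well above background on 3 arrays of each group and differed by 0.01 with a 95% interval of -1.91 to 1.93, so these arrays do not settle its direction.

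The soluble and other genes had 0 of 4 called, where 4.94% of all genes were, and a median of -0.13. Clec14a, a surface protein of vessel endothelium, read -4.45, -4.22, -3.61 and -2.55 against -3.51, -4.26, -4.88 and -4.65. The samples overlapped, and its difference of 0.61 was 1.11 within row 2 and -0.0017 within row 1. Of 7 endothelial markers 5 were tested. Cldn5 (1.77) passed toward MHCII-high, the other 4 had values below 0 and were not called, and the list median was -0.57. Tek and Emcn failed the filter on dim probes, and the list level was -3.96 to -3.45 against -4.10 to -3.31. Their part in the Clec14a values was not tested. Clec3b (tetranectin), a plasminogen-binding protein, differed by -0.29. Clec16a, a protein of endosomes and mitophagy rather than a surface lectin, differed by -0.42, and Clec18a by 0.03. The Clec18a probe read here was tied to the gene by its symbol. Further Clec18a probes, tied by a transcript identifier, had mean levels of -6.43, -7.28 and -7.56. These were well above background on 0 arrays. Whether the probe read here measures Clec18a RNA was not tested.

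Most of these genes are neighbours. By the probe positions, 25 of the 38 lay on chromosome 6, 23 of them tested, and those separated by gaps under 1 Mb formed stretches. The stretch from Clec4a1 to Clec4e, 348 kb long at chr6:122884578-123232937, held 8 tested genes with 5 values below 0, a median of -0.56 and a range of -1.14 to 0.54. That from Clec2h to Clec7a, 796 kb long at chr6:128626525-129422630, held 11 tested genes with 7 above 0, a median of 0.08 and a range of -0.77 to 1.39. Direct neighbours could differ in sign. Clec4d (-1.14) lies next to Clec4n (0.13), and Clec1a (1.39) next to Clec1b (-0.77). The difference between the stretches was not tested.

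**Figure D3:**
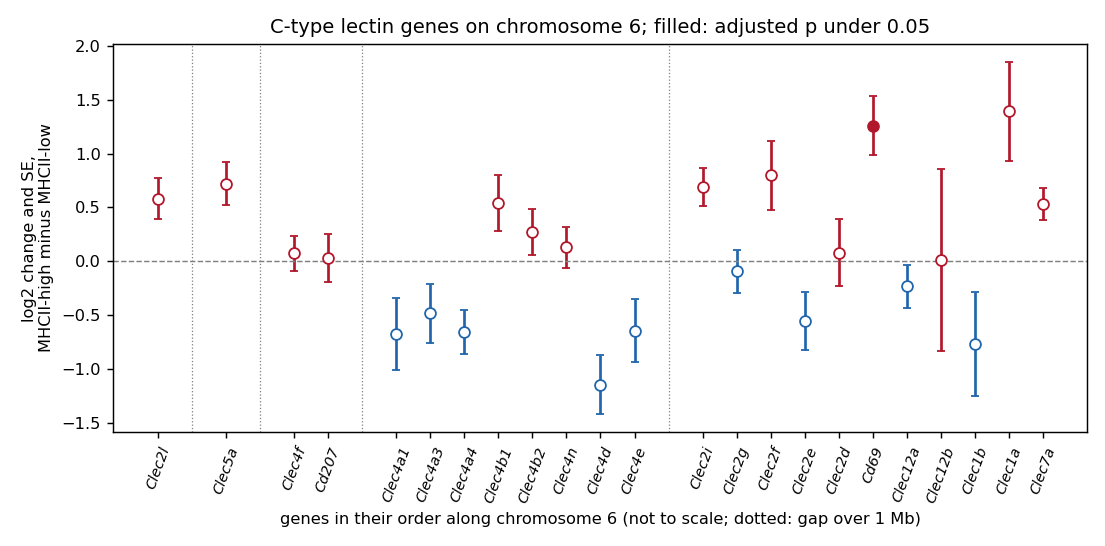
Points are the log2 differences (MHCII-high minus MHCII-low, vertical axis) with standard errors as bars of the 23 tested lectin genes on chromosome 6, placed in their order along it and not to scale, red above 0 and blue below, with dotted lines at gaps over 1 Mb. Cd69 is the filled point that passed an adjusted p of 0.05, and the stretch from Clec4a1 to Clec4e has 5 of 8 points below 0.

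Several probes that passed the filter read 12 of the members. Their signs were the same for 8 genes and opposite for Clec18a, Clec4b1, Clec4b2 and Mrc2. Mgl2 was called on both of its probes. Clec4b2 had a probe that was called (1.31, limma adjusted p = 0.0166) although it was not its brightest. That probe read -3.62, -2.91, -2.86 and -3.14 against -4.05, -4.40, -4.71 and -4.61, with separate groups, while the other Clec4b2 probes gave 0.27 and -0.41. The called probe and the brightest one, at 0.27, were tied to the gene by its symbol, and the one at -0.41 by a transcript identifier. Whether the called probe measures Clec4b2 RNA was not tested. For Mrc2 a dimmer probe gave 0.45 against -1.62. The Clec2d probes overlap by 20 bases, shown in capitals, at chr6:129136298-129136357 and chr6:129136338-129136397 on the plus strand of mm9, and still gave 0.52 and 0.08.
Clec2d, upstream probe: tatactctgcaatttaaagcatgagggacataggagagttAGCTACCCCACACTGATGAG
Clec2d, downstream probe: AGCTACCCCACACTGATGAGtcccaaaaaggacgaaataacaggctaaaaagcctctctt
The upstream probe read -1.88, -1.44, -1.90 and -0.71 against -2.25, -1.69, -1.80 and -2.27, and the downstream probe -1.81, -1.44, -1.58 and -0.44 against -1.79, -1.17, -1.56 and -1.06. They parted most in MHCII-low 20442. Among 1738 pairs of probes of different members only 1 pair shared a run of 12 or more bases, the Clec2g probe and the dimmer Clec2i probe, with a run of 17 and 51 of 60 bases identical when aligned. Whether either reads the other gene's RNA was not tested.

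**Figure D4:**
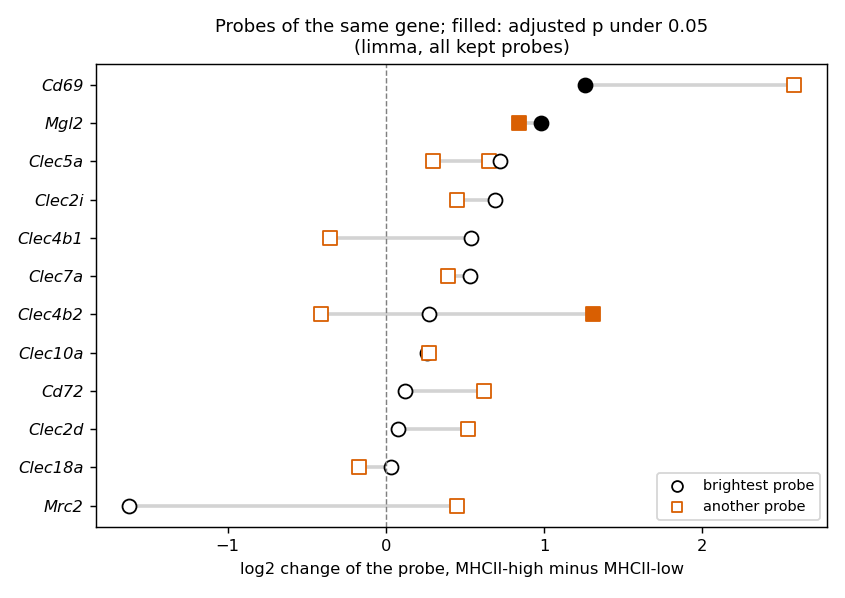
For the 12 lectin genes with several kept probes, each marker is a probe's log2 difference (MHCII-high minus MHCII-low, horizontal axis), a circle for the brightest probe and a square for another, filled where limma over all kept probes gave an adjusted p under 0.05. The Mgl2 markers lie at 0.84 and 0.98, while those of Mrc2 lie at -1.62 and 0.45.

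The proteins that carry lectin signals were then read from a list of 33 genes, chosen with earlier results of these data known. Of these 4 rose and 0 fell, where 2.69% and 2.26% of all genes did, and the median difference was 0.07. The comparison with all genes is therefore no test of the list. Malt1, the protease of the Card9 complex, read 1.42, 1.91, 2.12 and 2.16 against 0.22, -0.40, 0.75 and -0.30, a difference of 1.84 (limma adjusted p = 0.0122). The groups were separate, and Malt1 kept its call with the slide row as a block (limma adjusted p = 0.0412) and in each of the 8 fits with 1 sample left out. Its other probes gave 1.91 and 0.85. Src, a kinase upstream of Syk, rose by 0.84 (limma adjusted p = 0.0316), Prkcd, the kinase that activates Card9, by 0.68 (0.021), and Nfkb1, an NF-kB subunit, by 0.65 (0.0276). These 3 lost the call with the row block (limma adjusted p = 0.125, 0.0891 and 0.108). Prkcd also lost it without MHCII-high 20436 (0.0537) or 20439 (0.0729) or MHCII-low 20435 (0.0549) or 20439 (0.0617). Src kept it only without MHCII-low 20439 and Nfkb1 only without MHCII-low 20442, with adjusted p up to 0.0908 and 0.0778 in the other fits. Syk differed by 0.04 and Card9 by 0.01, and neither was called.

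A list of 9 ligands and partners was also chosen with earlier results of these data known. Of these 2 rose and 2 fell, where 2.69% and 2.26% of all genes did, a comparison that is no test of the list. Klrb1b, which encodes the NKR-P1B receptor that binds Clec2d, read 3.64, 3.54, 3.51 and 3.53 against 0.48, -0.12, 1.25 and -0.07. The MHCII-high samples lay within a narrow range and far above the others, with a difference of 3.17 (limma adjusted p = 0.00166, and 0.00935 with the row block). Its ligand gene Clec2d, printed above, differed by 0.08. Sema4d, a ligand of Cd72, read 2.13, 2.08, 2.24 and 1.83 against 0.28, -0.11, 1.12 and 0.42, a difference of 1.64 (limma adjusted p = 0.0118, and 0.0535 with the row block), and a dimmer Sema4d probe gave 1.30 (adjusted p = 0.111). S1pr1, the partner of Cd69, fell by 1.78 on the log2 scale (limma adjusted p = 0.029), the opposite sign to Cd69. Pdpn, podoplanin and the ligand of Clec1b, fell by 0.92 (limma adjusted p = 0.0314). With the row block S1pr1 and Pdpn lost the call (limma adjusted p = 0.116 and 0.123), as they did with the label number as a block (0.0651 and 0.0977). S1pr1 lost it without MHCII-high 20442 (0.0779) or MHCII-low 20435 (0.0791), 20436 (0.0512), 20439 (0.0674) or 20442 (0.0773). Pdpn kept it only without MHCII-high 20436, with adjusted p up to 0.0863 otherwise. Klrb1b and Sema4d kept it in each of those 8 fits.

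**Figure D5:**
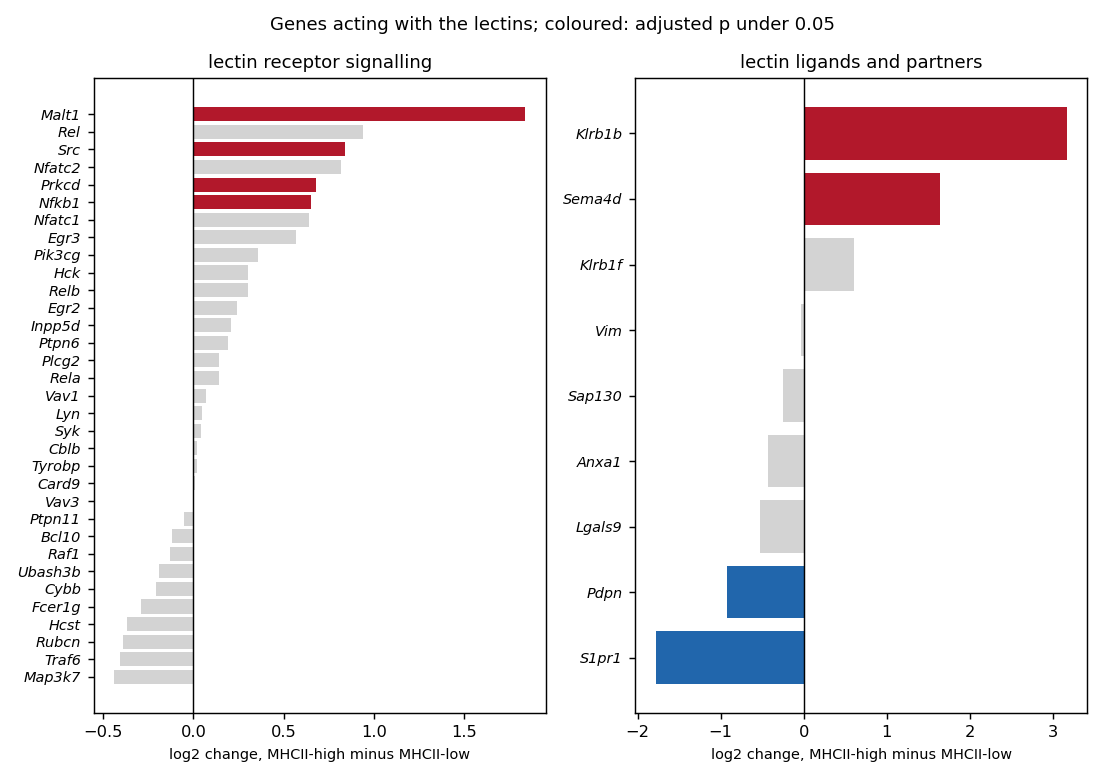
Bars show the log2 difference (MHCII-high minus MHCII-low, horizontal axis) of 33 genes of lectin receptor signalling (left) and 9 ligands and partners (right), coloured red (higher) or blue (lower) where limma gave an adjusted p under 0.05 and grey otherwise. Malt1 at 1.84 and Klrb1b at 3.17 are the longest bars of their panels, and S1pr1 at -1.78 and Pdpn at -0.92 are the blue ones.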

How the data were processed

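Spot intensities on a linear scale, in Cy5 alone, were taken from the scanner output the authors deposited. Agilent Feature Extraction 11.5.1.1 made it, per the submitters' processing notes, and had subtracted background and put surrogates in place of dim signals, per the file headers. Well-above-background marks were read from the same files. The authors' deposited series table holds log2 values whose making is not stated. Its columns correlated at 0.99999813 or more with a quantile normalization computed here, so its scale is log2 with no centring of genes.

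Control and outlier spots were left out. Log2 processed signals were scaled to the 75th percentile of each array, and genes with a probe well above background on 4 or more arrays were kept, each by its brightest probe. Groups were compared with lmFit and eBayes (limma 3.58.1, R 4.3.3), two-sided, with Benjamini-Hochberg adjustment over all 27963 genes and a threshold of 0.05. The script was tested on simulated data. Every member is named, those past the threshold with the value of each array, and of the signalling and ligand genes those past the threshold and up to 2 others. The members and lists were chosen with earlier results of these data known. Probe positions and sequences are those of the files, on mm9, and exons were not annotated here. Alternatives covered background correction, normalization, the filter, the probe rule, blocks for slide row and label number, a variance trend and each sample left out. Single probes fitted on their own were added after seeing the data. The number of arrays limits the precision. The result of 1 marker list is not reported here.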

Additional observations from a re-analysis of the deposited data

Results flagged for a closer look

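A single sample stood apart from the other 3 of its group, by Dixon's 95% limit, in 3 of 88 combinations of gene and group (3.41%), where chance flags about 1 in 20. Clec7a read 4.28 in MHCII-high 20435 and 3.87 to 3.94 in the other MHCII-high samples. Clec4g read -0.57 in MHCII-low 20435 and -0.89 to -0.86 in the other MHCII-low samples. Mgl2 read 4.53 in MHCII-high 20439 and 4.67 to 4.69 in the other MHCII-high samples.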

How the results depend on the processing

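Mgl2 passed under every alternative that has a test (log2 difference 0.84 to 1.23 over all alternatives, limma adjusted p = 0.00151 to 0.0499). The number of lectin genes called was 5 with normexp and quantile normalization (Cd302, Cd69, Clec4d, Clec5a and Mgl2), 5 when genes had to be above background on all 8 arrays (Cd302, Cd69, Clec2i, Clec4d and Mgl2) and 7 with a variance trend in eBayes (Cd302, Cd69, Clec2i, Clec4d, Clec5a, Clec7a and Mgl2). It was 1, Mgl2, with centring on the array median, with no filter on dim probes and under the block for slide row. Among all genes 7% passed with normexp, 6.82% with the stricter filter and 7.27% with the trend. The share of all genes was 4.3% with centring, 2.9% with no filter and 1.63% under the row block. Fewer genes are tested in the stricter filter by its construction (24467), and the cause of the other shifts was not tested. Over all genes 455 passed under the block for slide row and 809 under the replicate block by label number, which called Cd69 and Mgl2 among the lectins and moved no member's call. With 1 sample left out the counts were 1 to 2 lectin genes and 555 to 1169 genes, and the median lectin difference was 0.048 to 0.17. That median was 0.0038 with normexp and 0.001 with centring, which moved the median of all genes to -0.072. Samples with the same number deviated together with correlations across genes of 0.188, 0.127, 0.21 and 0.0827 for 20435, 20436, 20439 and 20442. These were not all over 0.1, so the main fit took the samples to share only a number. Still, 8 of 8 samples correlated best with their own number, a hint of pairing from the data and not from the design. The block by label number took the call from Src, Prkcd, Nfkb1, S1pr1 and Pdpn, while Malt1, Klrb1b and Sema4d kept it.

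Signs turned as follows. Cd207 was -0.047 with normexp, -0.018 with quantile normalization, -0.046 with centring, -0.017 in the authors' table, -0.12 with the row block and -0.32 within row 2. Clec18a was -0.015, -0.014, -0.047 and -0.013 under the first 4 of these, -0.072 with the mean of its probes and -0.17 on another probe. Clec12b was -0.027 with normexp, -0.062 with centring and -0.38 within row 1, and Clec4f was -0.012 with normexp and -0.0028 with centring. Clec2d was -0.073 with the row block and -0.22 within row 2, and Clec2g was 0.15 with the row block and 0.13 and 0.18 within rows 1 and 2. Within row 1 Clec14a was -0.0017, Clec4a3 0.0051 and Clec4g -0.013. Within row 2 Cd72 was -0.23, Clec2e 0.015, Clec4b1 -0.046 and Clec4n -0.25. Other probes gave 0.45 for Mrc2, -0.35 for Clec4b1 and -0.41 for Clec4b2. With 1 sample left out the sign turned for Cd207 (-0.14 to 0.15), Clec12b (-0.76 to 0.56), Clec18a (-0.028 to 0.11), Clec2d (-0.21 to 0.25), Clec2g (-0.22 to 0.013) and Clec4f (-0.012 to 0.16). The cause of these turns was not tested. Clec12b and Ly75 are limited by signal near background.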
